A study of Mus musculus with 8 samples.

Results

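The gremlin, BMP, Wnt and R-spondin genes of the intestinal stem cell niche were examined in the colons of 8 mice. The set held 9 genes chosen by name: the BMP antagonist gene Grem1, the ligand genes Bmp2, Bmp4, Bmp5 and Bmp7, the Wnt genes Wnt5a and Wnt2b, and the R-spondin genes Rspo1 and Rspo3. Each of the 9 had exactly 1 probe set with its symbol, out of 30769 named genes measured, and none was dropped for a low value. All 8 mice were Rag1-/- on the C57BL/6 strain, and so lacked B cells and had T cells from the transfer only. The 5 control mice received regulatory T cells (Treg-injected), and the 3 inflamed mice received naïve T cells and were killed with signs of severe colitis such as weight loss and diarrhoea. Transfer took place at 10 weeks of age and tissue was taken after 2 to 4 more months, which overlaps only in part with the labelled age of 4 to 5 months. The sampled region is uncertain, because the labels name both distal colon and a strip reaching from cecum to rectum. Each mouse gave 1 array of whole tissue, on which fewer cells of a type and less RNA per cell cannot be told apart.

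In the intestine, BMP ligands signal from the mesenchyme and the upper crypt and favour differentiation of the epithelium. At the crypt base, fibroblasts and smooth muscle cells secrete gremlin 1, which binds BMP2, BMP4 and BMP7 and keeps them from their receptors, together with Wnt proteins and R-spondins that sustain stem cells. R-spondins bind LGR receptors and remove the ubiquitin ligases that clear Wnt receptors, so that they amplify Wnt signals.

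The promoters of 5 of the 9 genes were found in the RefSeq table of GRCm38.p6 (Grem1, Bmp4, Bmp5, Wnt2b and Rspo1). Those of Grem1 and Wnt2b are shown because these genes had the largest positive difference and the second largest difference in size among the genes with a promoter entry, and that of Bmp4 because its protein is a ligand that gremlin 1 binds. Each is the stretch of 250 bases before the annotated start, on the minus strand, at chr2:113758649-113758898 for Grem1, chr3:104961710-104961959 for Wnt2b and chr14:46390670-46390919 for Bmp4. Capitals mark matches on either strand to the GC box (GGGCGG) or to the BMP-SMAD motif (GGCGCC), which can overlap each other.
Grem1 promoter: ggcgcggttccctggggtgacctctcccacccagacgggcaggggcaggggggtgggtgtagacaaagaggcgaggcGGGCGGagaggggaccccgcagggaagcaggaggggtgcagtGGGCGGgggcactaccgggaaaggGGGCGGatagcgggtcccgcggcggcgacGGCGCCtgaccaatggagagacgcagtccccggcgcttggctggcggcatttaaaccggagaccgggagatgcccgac
Wnt2b promoter: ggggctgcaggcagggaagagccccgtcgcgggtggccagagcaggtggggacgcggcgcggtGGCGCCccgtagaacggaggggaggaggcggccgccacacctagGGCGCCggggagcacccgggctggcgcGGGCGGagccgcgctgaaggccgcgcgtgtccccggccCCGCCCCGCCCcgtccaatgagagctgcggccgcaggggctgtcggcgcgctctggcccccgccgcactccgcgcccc
Bmp4 promoter: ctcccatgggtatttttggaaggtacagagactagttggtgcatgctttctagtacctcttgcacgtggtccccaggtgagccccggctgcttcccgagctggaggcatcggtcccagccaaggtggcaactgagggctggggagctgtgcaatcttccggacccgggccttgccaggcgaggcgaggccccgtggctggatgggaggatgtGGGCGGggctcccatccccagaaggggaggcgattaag
The Grem1 stretch held 3 GC boxes and 1 BMP-SMAD motif, the Wnt2b stretch 3 and 2, and the Bmp4 stretch 1 and 0. Of 32851 RefSeq windows of that length, 32.7% held the GC box and 9.59% the BMP-SMAD motif. The TATA box (TATAAA, in 12.4% of windows), the AP-1 motif (TGANTCA, 6.75%) and the TCF/LEF motif (ATCAAAG, 3.21%) had no match in any of the 5 windows. GC content was 72.0% for Grem1, 80.8% for Wnt2b and 63.2% for Bmp4, against 42.8% for Bmp5 and a median of 52.4% over all windows.

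Levels are log2 intensities as deposited by the authors, differences are inflamed minus control with limma's standard error (SE), and a gene is said to have risen or fallen when its Benjamini-Hochberg adjusted p over all 30769 genes was under 0.05. By that rule none of the 9 genes rose or fell: 0 of 9 passed limma's test, against 13.1% of all genes (8.04% upward and 5.04% downward). Before adjustment, p was under 0.05 for Grem1 alone, 1 of 9, against 28.5% of the genes tested. The median difference over the 9 was 0.11, against -0.01 over all genes, and 5 differences were positive and 4 negative. The largest was that of Grem1, at about 2-fold and just outside the threshold.

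Grem1, the BMP antagonist, was at 7.09, 7.54, 7.70, 7.46 and 7.52 on control arrays 1 to 5 and at 7.75, 8.71 and 8.95 on inflamed arrays 1 to 3. All 3 inflamed values lay above every control, but inflamed replicate 1 only by a small margin, while replicates 2 and 3 stood well clear. Groups were separated in this way for 12% of all genes upward and for 21.2% in either direction; among the 9, for Grem1 alone. Mean Grem1 levels were 7.46 ± 0.23 (SD) over the 5 controls and 8.47 ± 0.64 (SD) over the 3 inflamed mice, a difference of 1.01 ± 0.27 or 2.01-fold, with a 95% confidence interval of 1.30 to 3.13-fold. The adjusted p from limma was 0.0515 (unadjusted p = 0.00687). An exact two-sided permutation test over the 56 splits of the arrays gave an unadjusted p = 0.0179, the smallest it can give. That value mostly restates the separation of the groups and adds little to it. A difference of at least 2-fold was found for 1.62% of genes upward and 2.59% in either direction. Grem1 also varied more among the control mice than most genes, since 5.85% of genes had a larger control SD.

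Whether Grem1 passed depended on the setting, and its difference moved most when inflamed replicate 1 was left out. Without that array the difference was 1.37 and passed limma's test (adjusted p = 0.00752), whereas without inflamed replicate 2 or 3 it was 0.89 (adjusted p = 0.137) or 0.77 (adjusted p = 0.129). Over 19 alternative settings the difference stayed positive, between 0.71 and 1.37, with limma adjusted p between 0.00752 and 0.137, and 7 of the settings brought it under the threshold. With the sex pattern of the arrays as a block the difference was 1.12 (adjusted p = 0.0396).

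**Figure D1:**
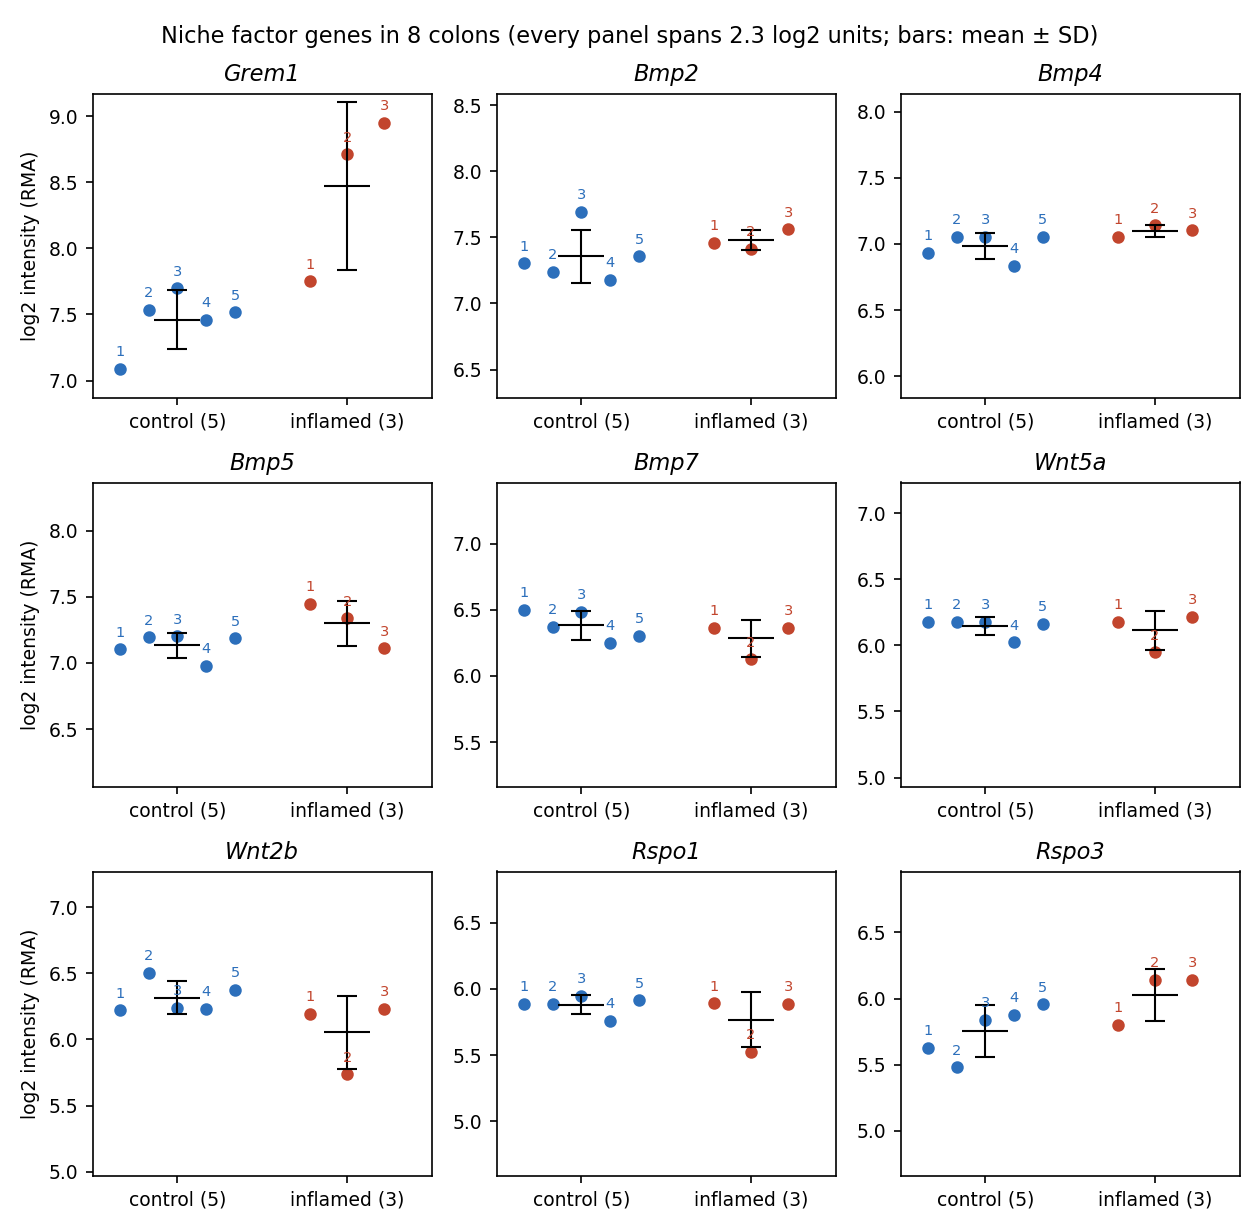
Log2 intensity of each niche factor gene on the 5 control (blue) and 3 inflamed (red) arrays, numbered by replicate, with the mean and SD in black; every panel spans the same range of log2 units. Grem1 alone has all 3 inflamed values above all controls, with inflamed replicate 1 at 7.75 against a highest control of 7.70.

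**Figure D2:**
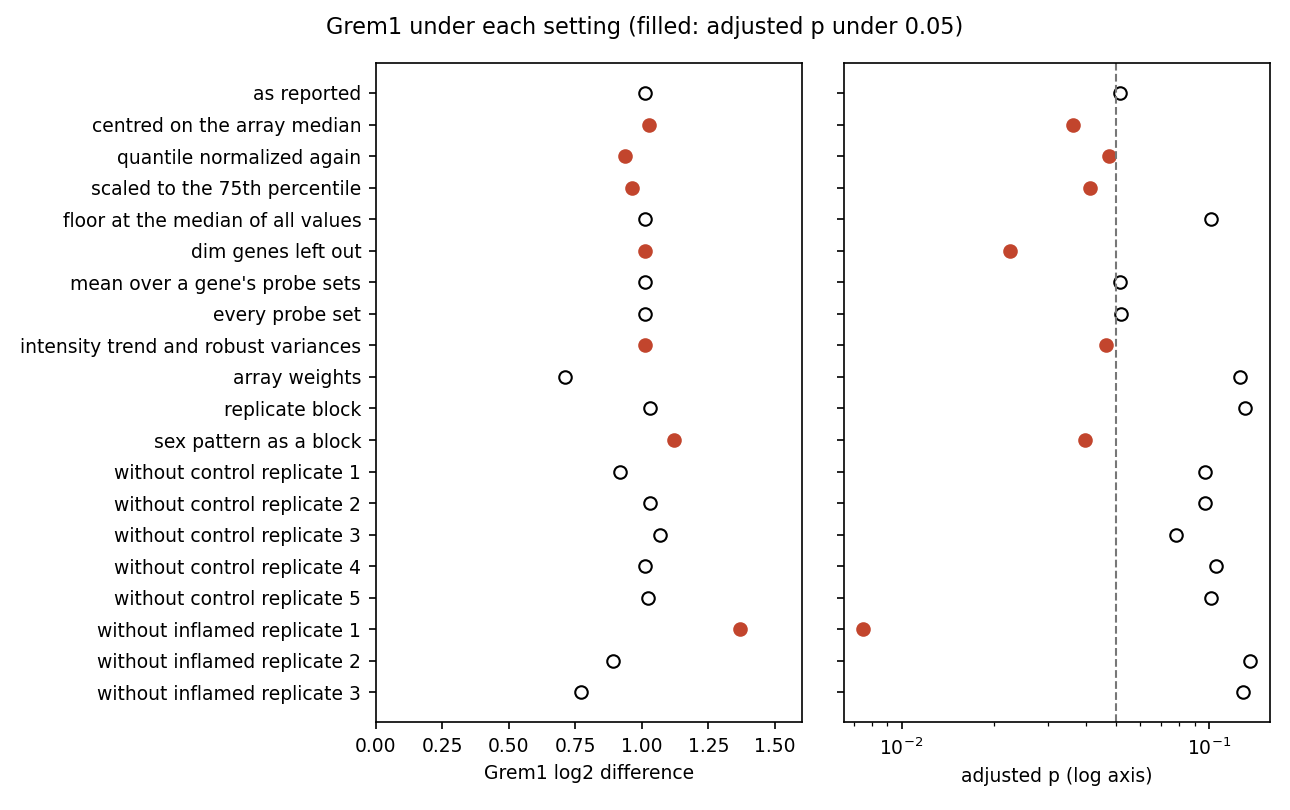
Grem1 difference, inflamed minus control on the log2 scale (left), and its adjusted p from limma on a log axis (right) under each setting, filled where the adjusted p was under the dashed line at 0.05. The difference is positive throughout, from 0.71 with array weights to 1.37 without inflamed replicate 1, while the adjusted p falls on both sides of the line.

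The BMP ligand genes differed little between the groups. Bmp2, whose protein is made mainly by differentiated epithelium, was at 7.30, 7.24, 7.69, 7.18 and 7.36 on the control arrays and at 7.46, 7.42 and 7.56 on the inflamed arrays. The inflamed values lay inside the control range, whose upper end was control 3. The difference was 0.12 ± 0.11 (limma adjusted p = 0.503), with an interval of 0.91 to 1.31-fold. Bmp4, a mesenchymal ligand, was at 6.93, 7.05, 7.05, 6.83 and 7.05 in control and at 7.05, 7.14 and 7.10 in inflamed colon. Inflamed replicates 2 and 3 lay slightly above all controls and replicate 1 was equal to controls 2 and 3 to 4 decimals. The difference was 0.11 ± 0.059 (limma adjusted p = 0.257), with an interval of 0.98 to 1.19-fold.

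Bmp5, a mesenchymal ligand of the subgroup that also holds Bmp7, was at 7.10, 7.19, 7.20, 6.98 and 7.18 in control and at 7.45, 7.34 and 7.11 in inflamed colon. Inflamed replicate 1, the lowest for Grem1, was highest here, and replicate 3 lay within the controls. The difference was 0.17 ± 0.085 (limma adjusted p = 0.245), with an interval of 0.98 to 1.29-fold. Bmp7, found in subepithelial fibroblasts, was at 6.50, 6.37, 6.48, 6.25 and 6.30 in control and at 6.36, 6.12 and 6.36 in inflamed colon. Only inflamed replicate 2 lay outside the controls, below them, and replicates 1 and 3 were equal to 4 decimals. The difference was -0.10 ± 0.081 (limma adjusted p = 0.456), with an interval of 0.82 to 1.07-fold, and without inflamed replicate 2 it was -0.02. With 1 array left out the differences were 0.08 to 0.21 for Bmp2 (highest without control 3), 0.08 to 0.14 for Bmp4 and 0.09 to 0.26 for Bmp5 (lowest without inflamed replicate 1). For all 4 ligand genes the intervals left out a 2-fold change in either direction on this array scale.

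The Wnt genes lay near or below their control levels, with inflamed replicate 2 lowest. Wnt2b, which encodes a canonical Wnt of crypt fibroblasts, was at 6.22, 6.50, 6.24, 6.23 and 6.38 in control and at 6.19, 5.74 and 6.23 in inflamed colon. Inflamed replicate 2 was far below the rest, replicate 1 just below all controls, and replicate 3 within them. The difference was -0.26 ± 0.13 (limma adjusted p = 0.224), with an interval of 0.68 to 1.02-fold, and without inflamed replicate 2 it was -0.10 (adjusted p = 0.495). Wnt5a, the non-canonical Wnt of the subepithelial mesenchyme that also acts in crypt repair after wounding, was at 6.18, 6.18, 6.18, 6.02 and 6.16 in control and at 6.18, 5.95 and 6.22 in inflamed colon. The groups overlapped, and 4 of the 8 arrays held one identical value. The difference was -0.03 ± 0.069 (limma adjusted p = 0.799), with an interval of 0.88 to 1.10-fold, and its sign turned without inflamed replicate 2 (0.05).

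The R-spondin genes gave differences of opposite sign. Rspo3, which encodes the R-spondin of crypt fibroblasts and lymphatic endothelium, was at 5.63, 5.48, 5.84, 5.88 and 5.96 in control and at 5.80, 6.14 and 6.14 in inflamed colon. Inflamed replicates 2 and 3 lay above all controls and replicate 1 among them. The difference was 0.27 ± 0.13 (limma adjusted p = 0.223), with an interval of 0.98 to 1.49-fold. Rspo1, a mesenchymal and mesothelial R-spondin, was at 5.89, 5.89, 5.95, 5.76 and 5.91 in control and at 5.89, 5.53 and 5.89 in inflamed colon. Inflamed replicate 2 was lowest and the other inflamed values lay within the controls. The difference was -0.11 ± 0.091 (limma adjusted p = 0.449), with an interval of 0.80 to 1.07-fold, and without inflamed replicate 2 it turned to 0.0093.

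**Figure D3:**
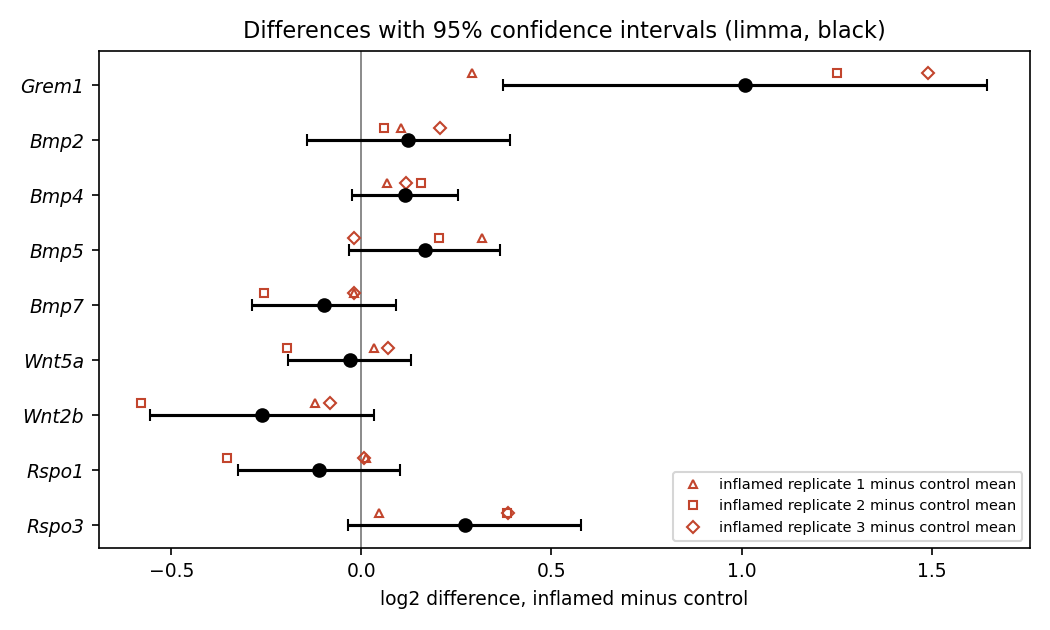
Difference between inflamed and control colon on the log2 scale for each gene, with the 95% confidence interval from limma in black, and each inflamed array's own distance from the control mean as open red symbols. The interval of Grem1 lies above 0 (0.37 to 1.65), and inflamed replicate 2 lies lowest for Bmp7, Wnt5a, Wnt2b and Rspo1.

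Inflamed replicate 2 stood apart from the other inflamed arrays over all genes, with Pearson's r of 0.9892 and 0.9877 with replicates 1 and 3, which were at 0.995 with each other, against 0.9786 to 0.9853 between groups and 0.9948 to 0.9975 among controls (across genes, which are not independent replicates). It held the lowest of the 8 values for 4 of the 9 genes, as it did for 29.2% of all genes. The control means of all 9 genes lay above the median of all named values (5.67), but within the spread of the negative controls. The array's 5222 probe sets named as negative controls had array medians of 4.92 to 5.11 and 95th percentiles of 7.87 to 8.04. Every control mean of the 9 lay above those medians and below those percentiles. The inflamed mean of Grem1 (8.47) lay above those percentiles, with 2.78% of the negative control probe sets above it. Of these probe sets 7.76% lay above the control mean of Grem1, 8.75% above that of Bmp2, 10.9% above that of Bmp5 and 12.8% above that of Bmp4. The shares were 21.1% for Bmp7, 22.3% for Wnt2b, 25.3% for Wnt5a, 30.6% for Rspo1 and 33.2% for Rspo3. RMA values of probe sets at such levels can be compressed, so that folds may be understated, which was not tested.

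The sexes were mixed within both groups, with controls 1 and 2 and inflamed replicates 1 and 2 lacking the female transcript Xist. The Grem1 difference was 0.92 among these arrays (2 against 2) and 1.39 among the others (3 controls against 1 inflamed). For Rspo3 the values were 0.42 and 0.25, and with sex as a block its difference was 0.35 (limma adjusted p = 0.0645). The control means of Rspo3 were 5.55 on the arrays without Xist and 5.89 on those with it. For Bmp5, Bmp7, Wnt5a and Rspo1 the sign differed between the arrays with and without Xist, with differences of at most 0.25 in size.

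The other genes of these pathways were counted in lists, among which single genes changed while most did not. Over all genes 4025 passed (13.1%), 2475 upward and 1550 downward, a split that became 2179 upward and 2472 downward when arrays were scaled to their 75th percentile. Of 10 BMP ligand genes, the 4 above included, 1 fell and 0 rose, with a median difference of -0.06. Bmp3, a divergent family member that opposes other BMPs, went from 9.56 ± 0.27 to 7.97 ± 0.67 and fell by 1.59 ± 0.29 (limma adjusted p = 0.014). Bmp8b was at 6.50 in control and 6.99 in inflamed colon, a difference of 0.48 ± 0.15 (limma adjusted p = 0.0796).

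Among the extracellular BMP antagonists, Grem1 included, 1 of 12 measured genes rose and 0 fell, with a median difference of 0.00. Chrdl2, which encodes a chordin-like BMP antagonist, went from 5.43 ± 0.21 to 6.18 ± 0.27 and rose by 0.75 ± 0.15 (limma adjusted p = 0.0206). Its call ended without control 5, inflamed replicate 2 or inflamed replicate 3 (limma adjusted p = 0.0541, 0.057 and 0.0605). The related Chrdl1 was lower by a difference of -0.37 ± 0.13 that did not pass (limma adjusted p = 0.103).

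Of 13 BMP receptor and SMAD genes 1 fell and 0 rose, with a median difference of -0.02. Rgmb, a BMP co-receptor, fell by 0.60 ± 0.087 (limma adjusted p = 0.00546). Smad4, the shared SMAD of BMP and TGF-beta signalling, differed by 0.35 ± 0.10 (limma adjusted p = 0.0724). Without inflamed replicate 1, 3 genes of that list passed. Of 10 genes that BMP signals can induce, 2 rose and 1 fell, with a median difference of -0.12. Id2 and Id1, inhibitors of basic helix-loop-helix factors that many other signals also induce, rose by 0.98 ± 0.17 (limma adjusted p = 0.0105) and by 0.60 ± 0.12 (limma adjusted p = 0.0203). Smad6, an inhibitory SMAD, fell by 0.38 ± 0.072 (limma adjusted p = 0.0149). Id1 no longer passed when control 2, control 4, inflamed replicate 1 or inflamed replicate 2 was left out (limma adjusted p between 0.0523 and 0.076).

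Of the 19 Wnt ligand genes none passed limma's test, and 0 had an unadjusted p under 0.05. The largest differences after Wnt2b were those of Wnt6, at -0.19 ± 0.093 (limma adjusted p = 0.241), and Wnt10a, at -0.18 ± 0.13 (limma adjusted p = 0.397). Without inflamed replicate 2 these were -0.07 and -0.0043. The median difference of the list was -0.07. For 17 of the 19 the lowest of the 8 values was on inflamed replicate 2, which held the lowest value for 42.0% of the 13053 genes within the same range of control means (3.83 to 6.42). In that range 8.17% of genes passed.

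Of 15 genes for Wnt secretion and inhibition 2 fell and 0 rose, with a median difference of -0.13. Wls, the carrier that Wnt proteins need to leave the cell, was at 8.18, 8.35, 8.47, 8.48 and 8.28 in control and at 7.72, 7.79 and 7.12 in inflamed colon. All 3 inflamed values lay below every control, as for 9.17% of all genes, and Wls fell by 0.81 ± 0.16 (limma adjusted p = 0.0172). Wif1, a secreted Wnt inhibitor, fell by 0.26 ± 0.062 at a dim level of 5.63 in control (limma adjusted p = 0.0361). The Wif1 call ended without control 1, 2 or 3 or any 1 inflamed array (limma adjusted p between 0.0617 and 0.0861), after quantile normalization (0.0525), with array weights (0.0521) and with the floor (-0.03, adjusted p = 0.697).

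Of 15 Wnt receptor genes 1 rose and 2 fell, with a median difference of -0.09. Fzd5, a frizzled gene expressed in the intestinal epithelium, fell by 0.85 ± 0.11 (limma adjusted p = 0.00349). Ror1, a receptor for WNT5A, fell by 0.53 ± 0.13 (limma adjusted p = 0.037), and Fzd1 rose by 0.45 ± 0.11 (limma adjusted p = 0.0357). The Ror1 call ended without control 2, 3 or 4 or any 1 inflamed array (limma adjusted p between 0.0615 and 0.111), with sex as a block (0.0579) and with the floor (0.196). That of Fzd1 ended without any 1 control or inflamed replicate 1 (limma adjusted p between 0.0654 and 0.0783), under 2 of the 3 other scalings (0.0545 and 0.0616) and with the floor (0.0733). The count of receptor genes passing was 1 without control 2, 3 or 4 or inflamed replicate 1, and 4 without inflamed replicate 2.

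Of 8 measured R-spondin and receptor genes 1 fell and 0 rose, with a median difference of -0.03. Lgr5, the R-spondin receptor that marks crypt stem cells, was at 5.96, 5.96, 6.15, 5.92 and 5.98 in control and at 5.27, 5.84 and 5.18 in inflamed colon. The inflamed arrays lay below all controls, replicate 2 only just, and Lgr5 fell by 0.57 ± 0.15 (limma adjusted p = 0.0445). That call ended without any 1 control or inflamed replicate 1 or 3 (limma adjusted p between 0.0822 and 0.149) under 2 of the 3 other scalings (adjusted p = 0.0615 and 0.0633), with the floor (-0.27, adjusted p = 0.0647) and with sex as a block (-0.59, adjusted p = 0.0657). Without inflamed replicate 2 the Lgr5 fall was kept (difference of -0.77) and Znrf3, a ligase that removes Wnt receptors, passed as well, at -0.38 (limma adjusted p = 0.0192) against -0.28 ± 0.084 with all arrays (adjusted p = 0.0696).

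Of 14 measured Wnt target genes 2 rose and 2 fell, with a median difference of -0.11. Cd44, an adhesion receptor of crypt cells and of leukocytes, rose by 0.77 ± 0.14 (limma adjusted p = 0.0123), and the growth regulator gene Myc rose by 0.52 ± 0.10 (limma adjusted p = 0.0161). Beside Lgr5, the crypt transcription factor gene Sox9, named after its value was seen, fell by 0.45 ± 0.076 (limma adjusted p = 0.00999). Without inflamed replicate 2 the count was 5.

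**Figure D4:**
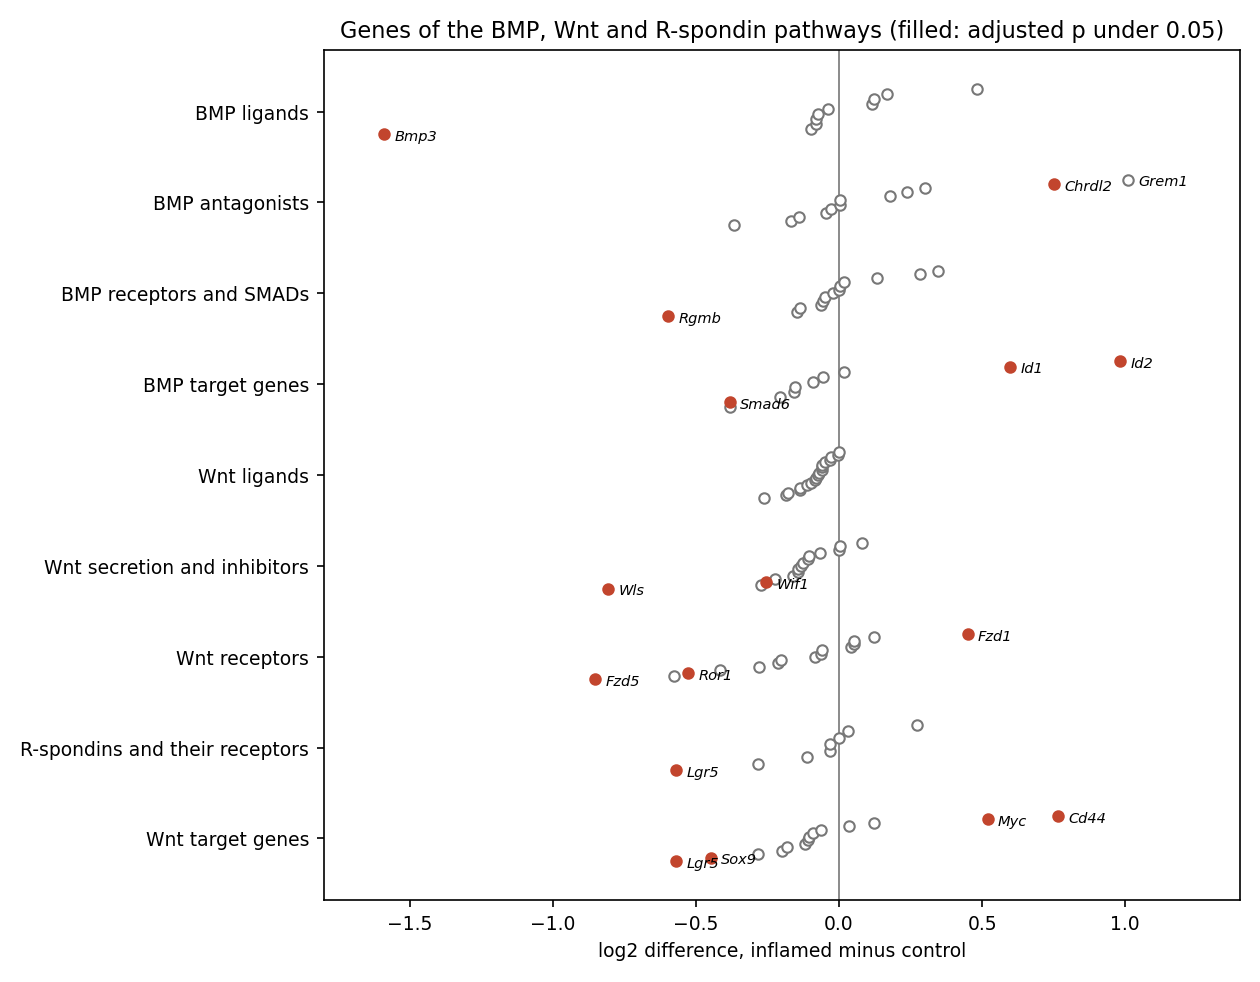
Difference between inflamed and control colon on the log2 scale for every measured gene of the BMP, Wnt and R-spondin lists, filled red where the adjusted p from limma was under 0.05. Grem1 (open, 1.01) and Chrdl2 lie at the upper end of the antagonists, Bmp3 at -1.59, and no Wnt ligand gene is filled.

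Markers of the cells that make or surround these factors were counted on the same arrays. Epithelial markers were bright in both groups (Epcam at 12.24 in control and 12.23 in inflamed colon), and 1 of 8 rose, Krt20, with list means of 11.49 to 11.69 in control and 11.67 to 11.77 in inflamed colon. Leukocyte markers rose in 6 of 6 genes, with list means of 5.95 to 6.25 in control and 8.65 to 9.07 in inflamed colon. The pan-leukocyte gene Ptprc rose by 2.62 ± 0.14 (limma adjusted p = 0.000136) and the macrophage and neutrophil gene Lyz2 by 2.76 ± 0.078 (limma adjusted p = 2.33e-05). Smooth muscle markers fell in 7 of 9 genes, with list means of 9.74 to 10.20 in control and 9.30 to 9.40 in inflamed colon. Among them Cnn1 fell by 0.77 ± 0.13 (limma adjusted p = 0.0112) and Acta2 fell by 0.73 ± 0.12 (limma adjusted p = 0.00804). Des fell by 0.73 ± 0.17 (limma adjusted p = 0.0299). The Des call ended without control 2 or 5 or any 1 inflamed array (limma adjusted p between 0.0573 and 0.0821). It also ended with sex as a block (limma adjusted p = 0.0532) and with the floor (0.0647).

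Of 8 measured fibroblast genes 2 rose (Thy1 and Pdpn) and 1 fell (Dpt), with a median difference of 0.39, 6 positive differences and 5 unadjusted p under 0.05, and with list means of 7.54 to 7.94 in control and 7.79 to 8.09 in inflamed colon. In the list of subepithelial fibroblasts 1 of 4 measured genes rose and 1 fell, with list means of 6.34 to 6.52 and 6.26 to 6.54. F3, tissue factor, was at 7.28, 7.31, 7.77, 7.42 and 7.63 in control and at 8.30, 8.43 and 9.05 in inflamed colon, and rose by 1.11 ± 0.19 (limma adjusted p = 0.0104). Sox6, a transcription factor gene of these fibroblasts, fell by 1.06 ± 0.15 (limma adjusted p = 0.00458). Grem1 was lowest on inflamed replicate 1 and highest on replicate 3, as were F3 and Gli1. Of the other subepithelial fibroblast genes, Foxl1 was lowest and Sox6 highest on replicate 2. The fibroblast list means were 8.09 on replicate 3 and between 7.79 and 7.84 on the other inflamed arrays. The leukocyte genes did not share one order over the inflamed arrays. On replicates 1, 2 and 3, S100a8 was at 9.07, 10.37 and 11.42, Itgam at 7.03, 7.60 and 8.34 and Csf1r at 7.79, 7.83 and 8.11. Each of these had the order of Grem1. Highest on replicate 1 were Ptprc (8.88, 8.37 and 8.31) and the T cell gene Cd3e (7.66, 7.22 and 6.72). Lyz2 was highest on replicate 2 (11.47, 11.76 and 11.54). Thy1, counted in the fibroblast list, had the order of Ptprc and Cd3e (7.2562, 7.0755 and 6.996) and not that of its list mean. Which cells the Thy1 rise came from was not tested. Epcam, Pdpn, Itgam, Csf1r, Cd3e and Foxl1 were named after their values were seen.

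No gene passed among 4 markers of Cd81- and Ackr4-bearing fibroblasts (list means of 6.81 to 6.98 in control and 6.71 to 6.84 in inflamed colon) or among 5 markers of blood endothelium (5.74 to 5.85 and 5.66 to 5.93). The same held for 3 measured markers of enteric glia (5.44 to 5.57 and 5.41 to 5.49) and 4 of mesothelium (5.02 to 5.05 and 4.92 to 5.13). Of 4 lymphatic markers 1 rose and 0 fell, with a median difference of -0.17. Their list means were 6.21 to 6.42 in control and 6.13 to 6.41 in inflamed colon. Lyve1, Prox1 and Flt4 were lower in inflamed colon, with differences of -0.25, -0.17 and -0.18, and did not pass. Pdpn, shared with the fibroblast list, rose by 0.39 ± 0.10 (limma adjusted p = 0.0466). The Pdpn call ended without any 1 control or inflamed replicate 2 or 3 (limma adjusted p between 0.0573 and 0.126). Its limma adjusted p was also over the threshold with sex as a block (0.0829), at the 75th percentile (0.0544), with array weights (0.098) and with the floor (0.0902). The Dpt fall, by 0.58 ± 0.15 (limma adjusted p = 0.0424), ended without control 1, 3, 4 or 5 or any 1 inflamed array (limma adjusted p between 0.0518 and 0.111), with sex as a block (0.0667), with array weights (0.071) and with the floor (0.086). The Krt20 rise, by 0.58 ± 0.12 (limma adjusted p = 0.02), shrank to 0.38 after quantile normalization (adjusted p = 0.243) and also lost its call when control 2, control 5, inflamed replicate 1 or inflamed replicate 2 was left out (limma adjusted p between 0.0503 and 0.0539). The part of these cell types in the values of the niche factor genes was not tested.

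**Figure D5:**
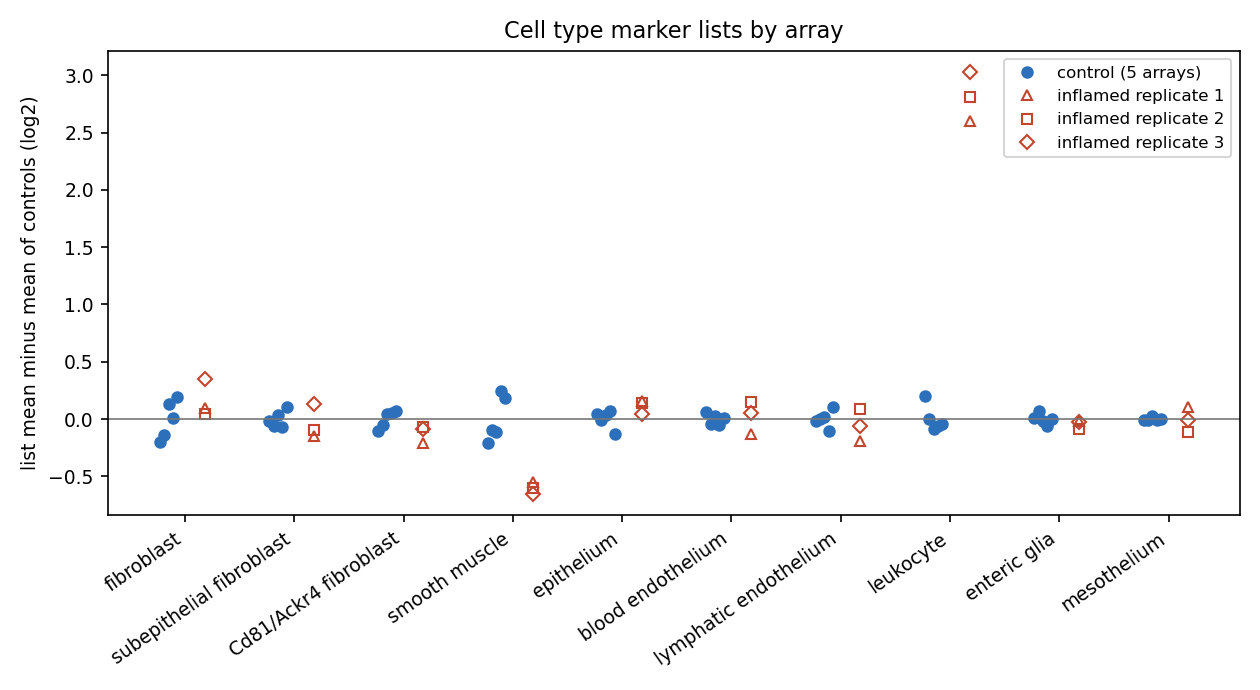
Mean log2 intensity of each cell type marker list on each array, minus the average of the 5 controls; blue points are controls and open red symbols the inflamed replicates. Leukocyte lists lie highest on all 3 inflamed arrays (8.65 to 9.07 before centring) and smooth muscle lists below all controls, while the other lists differ by less than 0.5.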

How the data were processed

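Each of the 8 arrays held RNA from the colon of 1 mouse, and the labels call the arrays of a group biological replicates. The authors deposited log2 intensities normalized by RMA in Affymetrix Expression Console, per the submitters' processing notes. Its version and settings, the array model and the genome build were not given in the sources used here. Of 72688 probe sets, 31407 were named by GEO's platform annotation with symbols updated through RefSeq (1181 changed), 1343 matched several genes and stayed unnamed, and 33206 transcript clusters had no symbol. The brightest probe set stood for each of 30769 genes. Groups were compared with limma 3.58.1 (lmFit and eBayes) in R 4.3.3 on the deposited values, with Benjamini-Hochberg adjustment over all genes, and the procedure was tested on simulated data. The number of arrays limits the precision. Alternatives were other scalings, a floor, a filter on dim genes, other probe set rules, a trended robust fit, array weights, the replicate number or sex pattern as a block, and leaving out each array. The 9 genes and all lists were chosen with earlier results of these data known. Named genes were the 9, the 3 genes of largest difference that passed per pathway list (or 2 of any where under 2 passed), and up to 3 per marker list.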

Additional observations from a re-analysis of the deposited data

Results flagged for a closer look

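In 10 of 65 genes tested, 1 control array stood apart from the other 4 by Dixon's criterion for 5 values, which chance meets in about 1 of 20 groups. Among the niche factor genes this was Wnt5a, at 6.02 on control 4 against 6.16 to 6.18 on the others. Bmp3 was at 10.02 on control 1 (others 9.32 to 9.51) and Lgr5 at 6.15 on control 3 (others 5.92 to 5.98), both away from the inflamed values. Cd81 was at 9.90 on control 4 (others 10.10 to 10.19), Pdpn at 6.24 on control 4 (others 6.50 to 6.55) and Lyve1 at 7.34 on control 5 (others 7.05 to 7.08). For 4 dim genes the other 4 controls held one identical value, so that any departure met the criterion. These were Gfap at 5.51 on control 2, Lrrn4 at 4.84 on control 5, S100b at 5.00 on control 1 and Upk3b at 5.59 on control 3.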

How the results depend on the processing

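The sign of the difference held in every alternative run for Grem1, Bmp2, Bmp4, Bmp5, Bmp7, Wnt2b and Rspo3, and 8 of the 9 genes passed in none. Grem1 passed when centred on the array median (1.03), quantile normalized again (0.94), scaled to the 75th percentile (0.96), without dim genes (1.01), with a trended robust fit (1.01) and with sex as a block (1.12), each of which made the count of niche factor genes passing 1, and ranged from 0.77 to 1.37 when 1 array was left out (count 0 to 1). Over all genes 2336 passed with the floor and 2508 to 4576 when 1 array was left out, lowest without inflamed replicate 1. Upward calls were 61.5% of all calls as deposited, 46.9% at the 75th percentile and 51.7% after quantile normalization. The scalings put the median difference of all genes between -0.06 and 0.00. Signs turned for Wnt5a with array weights (0.0368) and for Wnt5a, Rspo1, Epcam, Sox10 and Msln when 1 array was left out, with ranges of -0.0818 to 0.0521 (Wnt5a), -0.1727 to 0.0093 (Rspo1), -0.0275 to 0.0123 (Epcam), -0.0604 to 0.0078 (Sox10) and -0.0502 to 0.2097 (Msln). S100b turned after quantile normalization (0.0049), and Epcam with median centring (0.0101), quantile normalization (0.0236) and the replicate block (0.0072).

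Counts passing per list moved by over 1.5 times as follows. Median centring gave 2 BMP ligands, 2 BMP antagonists and 0 R-spondin and receptor genes. Quantile normalization gave 2 antagonists, 1 Wnt secretion and inhibitor gene and 0 R-spondin genes, and the 75th percentile gave 2 antagonists and 2 R-spondin genes. The floor gave 1 secretion gene, 1 Wnt receptor and 0 R-spondin genes. Without dim genes the counts were 2 BMP ligands, 2 antagonists, 3 BMP receptors and SMADs, 1 secretion gene, 5 Wnt receptors and 2 R-spondin genes. The trended robust fit gave 2 antagonists. Array weights gave 2 antagonists, 1 secretion gene, 6 Wnt receptors and 2 R-spondin genes, and sex as a block gave 2 BMP ligands and 3 antagonists. With 1 array left out the counts were 1 to 1 for BMP ligands, 0 to 2 for antagonists, 1 to 3 for BMP receptors and SMADs, 2 to 3 for BMP targets, 0 to 0 for Wnt ligands, 1 to 2 for secretion, 1 to 4 for Wnt receptors, 0 to 2 for R-spondin genes and 3 to 5 for Wnt targets. Smaller moves were those of BMP targets from 3 to 4 (median centring, quantile normalization, 75th percentile, without dim genes) and of Wnt targets from 4 to 3 (median centring, quantile normalization, floor) or 5 (75th percentile, array weights, without dim genes). At the 75th percentile 3 secretion genes and 4 Wnt receptors passed, and with sex as a block 2 Wnt receptors. The cause was not tested.

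With the replicate number as a block 0 genes passed, in all lists too (4920 at an unadjusted p under 0.05 in limma). Deviations of same-numbered arrays correlated at -0.29, -0.05 and 0.07, so the numbers were not taken to pair the mice.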

Other observations

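The genes whose values over the 8 arrays, each centred on its own mean, lay nearest to those of Grem1 were Gm9458 and Cd33, a gene of myeloid cells, each with a root mean square difference of 0.20 on the log2 scale, and Smim31, with 0.22. They were picked after the values of Grem1 were seen, and their group differences of 0.83 for Gm9458, 0.97 for Cd33 and 0.94 for Smim31 follow from that choice and were given no test. Gm9458 had a control mean of 4.24, below the medians of the negative control probe sets (4.92 to 5.11), and the floor took its difference to 0.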
